A study of Mus musculus with 6 samples.

Results

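The genes described here are 2 SOX transcription factors, Sox9 and Sox4, and the surface or duct-associated markers Prom1, Epcam, Cd24a, Cd44 and Dclk1. They were chosen by name, and 6 of the 7 are among the 10245 genes of the normalized-count table. Dclk1 is the gene without a value there. RNA had been sequenced from the whole pancreas of 3 control and 3 Ptf1a cKO mice. Control mice had the genotype Ptf1a(CreER/+) and an age of 4 months at sacrifice, and Ptf1a cKO mice had the genotype Ptf1a(CreER/fl) and an age of 5 months, so that age cannot be told apart from genotype. Every mouse was gavaged with tamoxifen (TM) at 0.25 mg per g of body weight on 3 days and was killed on day 14. The CreER allele is inserted in Ptf1a and inactivates that copy, so the control mice kept a single working copy, while recombination in the Ptf1a cKO mice was limited to cells with an active Ptf1a locus.

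SOX9 and SOX4 bind DNA through an HMG box. SOX9 marks the bipotent progenitors of the embryonic pancreas and, in the adult, the duct and centroacinar cells, and SOX4 takes part in the formation of endocrine cells and is active in many epithelial tumors. PROM1 (CD133) is a membrane protein of apical protrusions, EPCAM an adhesion protein of epithelia, CD24A a small glycoprotein tethered to the membrane by a lipid anchor, and CD44 the receptor for hyaluronan, and antibodies to them are widely used to sort duct, progenitor and tumor-initiating cells. DCLK1 is a kinase of tuft cells and neurons. PTF1A drives the acinar program as part of a trimeric complex that reads an E-box beside a TC-box.

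In the Ptf1a cKO pancreas all 6 measured genes rose. Sox9, Cd24a and Prom1 rose 4.72-, 4.65- and 4.64-fold by the ratio of group means, Epcam 2.60-fold, Sox4 2.37-fold and Cd44 2.01-fold. Each of the 6 passed an adjusted p-value of 0.05 in limma, against 33.9% of all genes that passed in either direction and 17.1% that were higher. In each, every Ptf1a cKO library also lay above every control library, which was so for 26.5% of all genes, while 50.8% had groups apart in either direction. Their median log2 fold change was 1.77, beside 0.036 over the whole table. A log2 fold change of at least 1 was reached by 5 of them, with Cd44 under it, and 6.35% of all genes passed the test and reached it. In RNA from whole tissue, more or fewer cells of a type and more or less RNA per cell cannot be told apart.

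The values are read counts that the authors normalized across the 6 libraries, so depth cannot be read from them. Their sum over genes ranged from 17949900 to 21175800 in control and from 5527100 to 8981110 in Ptf1a cKO, while the median gene lies between 125.0 and 128.5 in every library. The paper lists similar numbers of uniquely aligned reads for both groups, so these sums are not a measure of depth. Ptf1a, the deleted gene, was at 566, 601 and 652 normalized counts in control replicates 1 to 3 and at 19.8, 70.1 and 10.2 in Ptf1a cKO replicates 1 to 3, a log2 fold change of -4.41 (limma adjusted p = 3.3e-04). All 27 genes of a list of acinar markers were in the table, and 22 of them fell (81.5%, beside 16.8% of all genes). The 27 genes made up 69.9% to 73.7% of the gene counts of the control libraries and 33.3% to 56.1% of those of the Ptf1a cKO libraries. X- and Y-linked transcripts of 2 control libraries went against the labelled sex. For comparison, Ptf1a cKO replicate 2, labelled male, had Xist, the RNA of the inactive X chromosome, at 7.87 normalized counts and the Y-linked Ddx3y at 299. The library labelled control 1, a male, had Xist at 1726 and Ddx3y at 1.74. The library labelled control 3, a female, had Xist at 93.6 and Ddx3y at 86.2, an intermediate profile whose source was not tested. Without both libraries, Sox9, Prom1, Cd24a and Epcam, 4 of the 6 genes, were still called, against 7.77% of all genes in either direction. That fit has a single control library, which is assumed to vary like the Ptf1a cKO libraries.

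**Figure D1:**
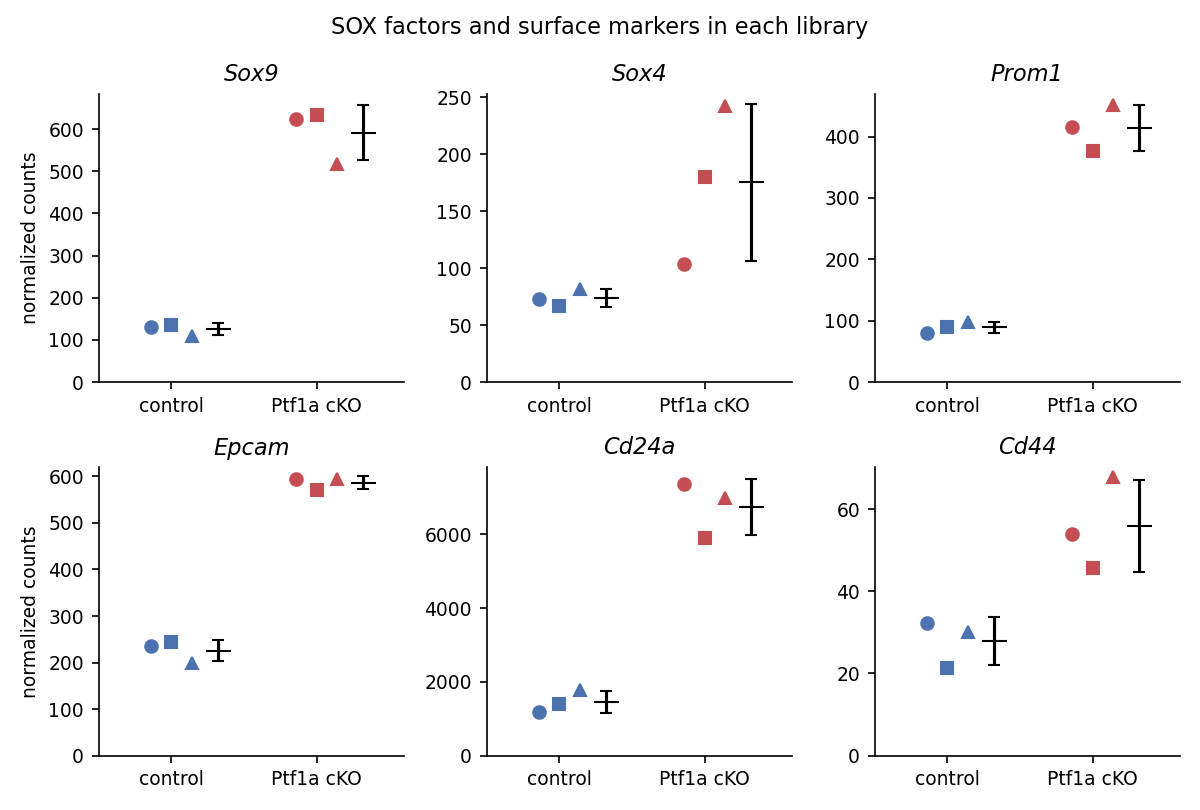
Normalized counts of the 6 genes in each library, with a panel and a vertical axis from 0 for each gene. Circles, squares and triangles are replicates 1, 2 and 3, blue for control and red for Ptf1a cKO, and the black mark is the mean ± SD of 3 libraries. In no panel do the groups overlap, and the gap is narrowest for Sox4, whose lowest Ptf1a cKO value is 104 against a highest control value of 82.1.

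Sox9, on chromosome 11, stood at 131, 136 and 109 normalized counts in the control libraries and at 625, 633 and 516 in the Ptf1a cKO libraries. The means were 125 ± 14.4 and 591 ± 65.5 (SD, n = 3 each), and the lowest Ptf1a cKO value was 3.79 times the highest control value. The libraries of a group lay close together, with a coefficient of variation of 11.5% in control and 11.1% in Ptf1a cKO. The log2 fold change was 2.21 (SE 0.13, 95% interval 1.91 to 2.51, limma adjusted p = 2.0e-05), and 108 of the 10245 genes had a larger one. An exact permutation test of this or any other single gene cannot go below a two-sided p of 0.1 with 3 libraries against 3, and each of the 6 genes gave that value. Without the control libraries 1 and 3, the log2 fold change of Sox9 was 2.09 (limma adjusted p = 0.0103).

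Sox4, a gene of a single exon on chromosome 13, was measured at 72.9, 66.5 and 82.1 normalized counts in control and at 104, 180.0 and 242 in Ptf1a cKO. Its means were 73.9 ± 7.83 and 175 ± 69.2 (SD, n = 3 each). The control libraries differed little, whereas the Ptf1a cKO libraries had a coefficient of variation of 39.4%, the widest of the 6 genes. The log2 fold change was 1.14 (SE 0.26, 95% interval 0.54 to 1.73, limma adjusted p = 0.0103). It was 1.27 without the control libraries 1 and 3 and no longer passed (limma adjusted p = 0.117). An RNA on the opposite strand, Gm26735, shares 2616 exonic bases with Sox4 in the GENCODE annotation of GRCm38 and has no value of its own in the table, and whether the counting used strand is not stated in the sources used here.

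The SOX family did not move as one. The table holds 7 of its genes. Sox9, Sox4 and Sox13 rose (42.9%, beside 17.1% of all genes), and Sox6, Sox7 and Sox12 fell (42.9%, beside 16.8%). Sox18 did not pass the test (log2 fold change -0.58, limma adjusted p = 0.0706, and 0.0387 without control replicate 2). Scaling every library to the same total turned the sign of Sox6, Sox12 and Sox18, as it raised the median log2 fold change of all genes to 1.49. Sox13, a SOXD factor like Sox6, had means of 143 and 199 normalized counts (log2 fold change 0.47, limma adjusted p = 0.0171), and it was not called without control replicate 1 or 2 or Ptf1a cKO replicate 1 (limma adjusted p = 0.0514 to 0.0701). Sox12, the closest relative of Sox4 in the table (both are SOXC factors), went the other way, from 110.5 to 48.8 (log2 fold change -1.14, limma adjusted p = 0.00293). Sox6, a partner of SOX9 in cartilage, had means of 125 and 67.4 (log2 fold change -0.85, limma adjusted p = 0.00246). The largest fall was that of Sox7, a SOXF factor of endothelium, with 46.7, 50.3 and 94.2 normalized counts in control and 7.82, 12.8 and 7.79 in Ptf1a cKO (log2 fold change -2.33, limma adjusted p = 0.00116). The summed level of 16 endothelial genes, Sox7 and Sox18 among them, spanned 1712 to 2274 in control and 1720 to 2026 in Ptf1a cKO. Of the 16, 1 was called higher and 1, Sox7 itself, lower (6.25% each, beside 17.1% and 16.8% of all genes). The higher count became 2 without Ptf1a cKO replicate 2 and none without Ptf1a cKO replicate 3, and leaving out control replicate 2 gave none higher and 3 lower. Without the control libraries 1 and 3, 1 SOX gene was called higher and 1 lower.

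Among the surface markers, Prom1 on chromosome 5 had 80.1, 89.6 and 98.5 normalized counts in control and 416, 377 and 451 in Ptf1a cKO. Its means were 89.4 ± 9.23 and 414 ± 37.1 (SD, n = 3 each), and the groups lay far apart, with a lowest Ptf1a cKO value 3.82 times the highest control value. The log2 fold change was 2.17 (SE 0.13, 95% interval 1.89 to 2.45, limma adjusted p = 1.7e-05), with 114 genes above it, and it was 2.16 without the control libraries 1 and 3 (limma adjusted p = 0.00718). The antisense RNA Gm16401, which has no value in the table, overlaps Prom1 exons over 424 bases. Prom2, the paralog of Prom1, was at 912, 894 and 822 normalized counts in control and 876, 781 and 841 in Ptf1a cKO. Its groups overlapped (log2 fold change -0.07, limma adjusted p = 0.633), and this small difference was 1.42 with every library scaled to the same total, close to the median of all genes there. Per kilobase of exon, Prom2 was the more abundant of the pair in both groups, 169 against 12.5 normalized counts in control and 161 against 57.8 in Ptf1a cKO.

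The start-site sequences of Prom1 and of its paralog with overlapping groups, with those of Epcam and Sox4, are shown for the letters that the PTF1 complex is known to read. They are the 250 bases before the RefSeq start in GRCm38.p6, which is not the build of the counted reads, and capitals mark an E-box (CANNTG) or a TC-box (TTTCCC) on either strand. Windows were found for 4 of the 6 genes. Sox9 and Cd24a were not matched.
Prom1 (chr5:44101737-44101986, minus strand): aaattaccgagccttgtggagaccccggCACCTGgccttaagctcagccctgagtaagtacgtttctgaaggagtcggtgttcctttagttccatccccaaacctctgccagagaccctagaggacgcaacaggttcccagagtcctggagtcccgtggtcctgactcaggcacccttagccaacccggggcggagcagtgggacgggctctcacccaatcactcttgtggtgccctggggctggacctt
Prom2 (chr2:127541418-127541667, minus strand): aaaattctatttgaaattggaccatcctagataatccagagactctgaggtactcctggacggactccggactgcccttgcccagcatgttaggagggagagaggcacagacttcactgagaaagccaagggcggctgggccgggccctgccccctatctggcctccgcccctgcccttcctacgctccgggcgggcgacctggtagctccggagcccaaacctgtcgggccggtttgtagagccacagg
Epcam (chr17:87635729-87635978, plus strand): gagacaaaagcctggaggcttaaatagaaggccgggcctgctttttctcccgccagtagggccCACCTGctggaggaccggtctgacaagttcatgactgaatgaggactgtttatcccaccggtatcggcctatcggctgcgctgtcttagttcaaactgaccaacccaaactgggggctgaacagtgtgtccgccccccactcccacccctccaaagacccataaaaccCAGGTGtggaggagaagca
Sox4 (chr13:28953700-28953949, minus strand): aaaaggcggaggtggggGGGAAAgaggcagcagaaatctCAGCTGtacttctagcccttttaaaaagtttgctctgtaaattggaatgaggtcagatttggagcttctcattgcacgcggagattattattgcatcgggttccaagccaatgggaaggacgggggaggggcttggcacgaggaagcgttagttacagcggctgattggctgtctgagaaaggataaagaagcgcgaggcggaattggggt
Prom1 holds 1 E-box, Epcam 2, and Sox4 1 E-box and 1 TC-box, while Prom2 holds neither. A second start of Prom1 (chr5:44094769-44095018) has none, and Cd44 has 2 TC-boxes and no E-box. Of 32851 such windows over all genes, 66.2% hold an E-box and 21.9% a TC-box. Matches of letters are a description only, and no binding was measured in these libraries.

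Epcam, on chromosome 17, was the steadiest of the genes in the Ptf1a cKO libraries. It had 235, 243 and 199 normalized counts in control and 593, 571 and 595 in Ptf1a cKO, with means of 226 ± 23.4 and 587 ± 13.6 (SD, n = 3 each) and a coefficient of variation of 2.31% in Ptf1a cKO. The groups were well apart, with a log2 fold change of 1.37 (SE 0.11, 95% interval 1.11 to 1.63, limma adjusted p = 9.2e-05), exceeded by 375 genes. It was 1.26 without the control libraries 1 and 3 (limma adjusted p = 0.0188). Cdh1, the E-cadherin shared by epithelial cells, had overlapping groups and means of 995 and 1008 (log2 fold change 0.01, limma adjusted p = 0.936), and its sign turned in 4 of the alternative settings. Cldn7, the claudin that binds EPCAM, rose from 160.3 to 224 normalized counts (log2 fold change 0.47, limma adjusted p = 0.0216) and lost the call without control replicate 1 or 2 or Ptf1a cKO replicate 1 or 2 (limma adjusted p = 0.0517 to 0.0825).

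Cd24a, on chromosome 10, was at 1175, 1395 and 1780 normalized counts in control and 7349, 5885 and 6991 in Ptf1a cKO. Its means were 1450 ± 307 and 6742 ± 763 (SD, n = 3 each). The control values spread more than those of the Ptf1a cKO libraries, with coefficients of variation of 21.1% and 11.3%, yet the groups did not come near each other. The log2 fold change was 2.23 (SE 0.18, 95% interval 1.83 to 2.63, limma adjusted p = 7.6e-05) and was 2.26 without the control libraries 1 and 3 (limma adjusted p = 0.0180).

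Cd44, on chromosome 2, had the smallest change of the 6 genes, from 32.2, 21.2 and 30.0 normalized counts in control to 54.0, 45.7 and 67.9 in Ptf1a cKO. The means were 27.8 ± 5.81 and 55.9 ± 11.2 (SD, n = 3 each), with spreads near 20.9% and 20.1% of the mean. The log2 fold change was 0.93 (SE 0.23, 95% interval 0.40 to 1.45, limma adjusted p = 0.0147). The call was lost without control replicate 2 (0.76, limma adjusted p = 0.0507), without Ptf1a cKO replicate 3 (0.78, limma adjusted p = 0.0542) and without the control libraries 1 and 3 (1.25, limma adjusted p = 0.0630). Spp1, which encodes the CD44 ligand osteopontin, had 1677, 1959 and 1327 normalized counts in control and 87512, 20971 and 105340 in Ptf1a cKO (log2 fold change 5.14, limma adjusted p = 2.3e-04). Its Ptf1a cKO libraries differed more widely than those of any of the 6 genes, but all lay above control. Cd74, the invariant chain that uses CD44 as a co-receptor, rose from 448 to 1754 (log2 fold change 1.74, limma adjusted p = 0.0313), although the groups overlapped, and its call was lost without control replicate 2 or 3 or Ptf1a cKO replicate 1 or 3 (limma adjusted p = 0.0912 to 0.106).

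CD44 is made by leukocytes and fibroblasts as well as by epithelium, and markers of both cell types were higher in the same libraries. Of 29 leukocyte gene names 19 were in the table, Lyz2 and Cd14 among them, and 14 rose (73.7%, beside 17.1% of all genes). The count was 8 without control replicate 2 and 9 without Ptf1a cKO replicate 3. The summed level of the list was 785 to 1413 in control and 3100, 2061 and 4685 in Ptf1a cKO replicates 1 to 3. The other 10 names were not in the table. They were the lymphocyte genes Cd3e, Cd3g, Cd8a, Cd79a, Ms4a1 and Il7r, the myeloid genes Itgax, S100a8 and S100a9, and Adgre1. Adgre1 is the newer name of Emr1, which was in the table and is among the 19. Of 22 fibroblast and stellate genes 21 were in the table and 18 rose (85.7%), with Col1a1 at a log2 fold change of 1.96 (limma adjusted p = 0.00102), and their sum was 4650 to 5579 in control and 8546, 15799 and 11621 in Ptf1a cKO replicates 1 to 3. Cd44 was lowest in Ptf1a cKO replicate 2, as was the leukocyte sum, while the fibroblast sum was highest there. Without the control libraries 1 and 3, 6 leukocyte and 7 fibroblast genes were called higher. The part of these cells in the values of Cd44 and of the other genes was not tested.

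For Dclk1 no value was at hand, and Dclk2 had none either. Dclk3, the remaining member of the doublecortin-like kinases, fell, with 47.5, 43.3 and 61.0 normalized counts in control and 7.43, 16.9 and 14.9 in Ptf1a cKO (log2 fold change -1.75, limma adjusted p = 0.00327). Of 22 tuft cell genes, 5 were in the table, and the defining Pou2f3, Trpm5, Gfi1b and Avil were not. Fyb and Vav1 rose (log2 fold changes 2.49 and 1.58, limma adjusted p = 0.0104 and 0.0156), and both are also genes of leukocytes. Vav1 was not called without control replicate 1 (limma adjusted p = 0.0513). Ptgs1, with the highest mean count of the 5, had means of 28.0 and 28.6 normalized counts and overlapping groups.

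**Figure D2:**
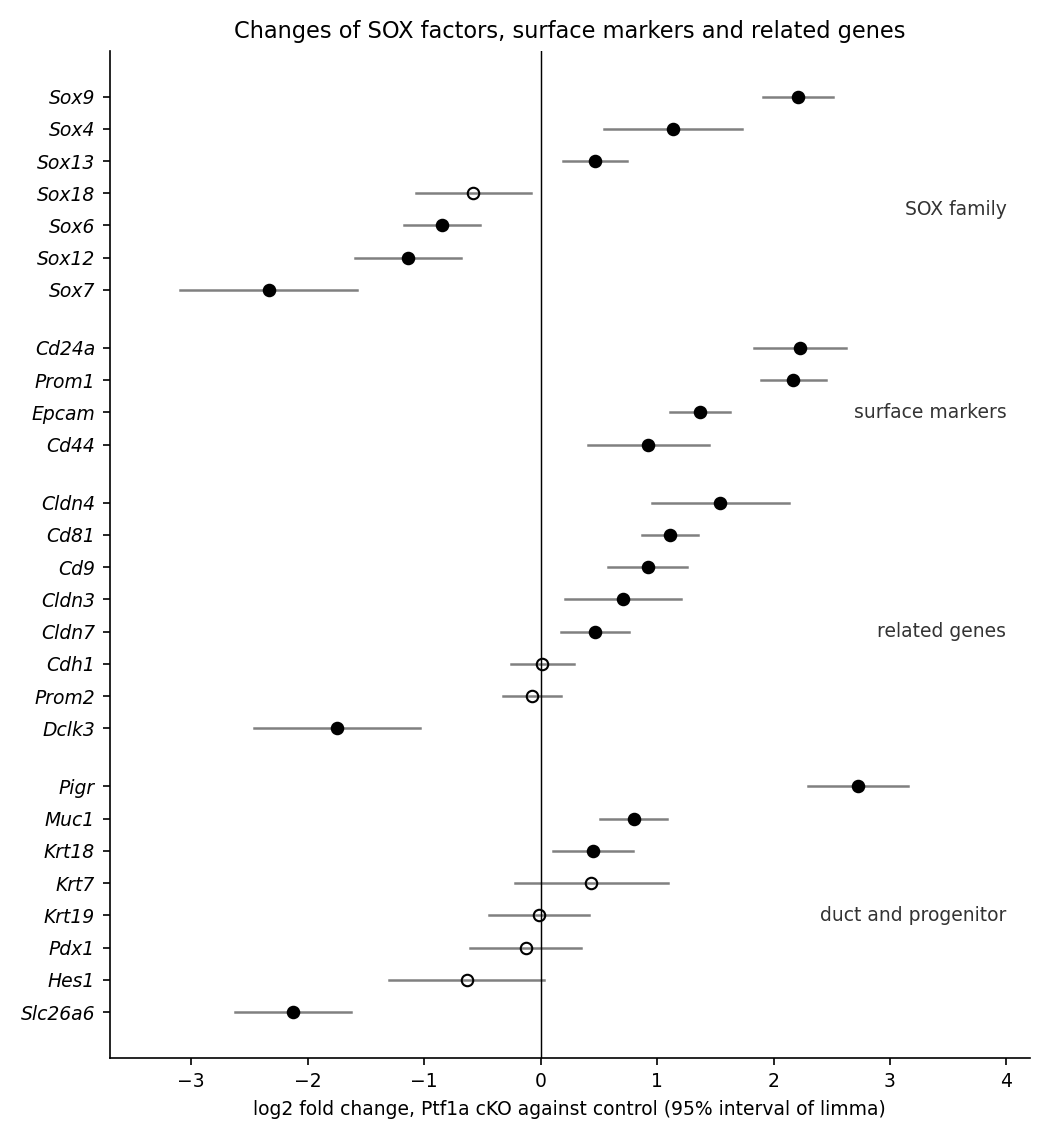
Log2 fold changes of Ptf1a cKO against control with the 95% interval from limma, for the SOX family, the surface markers, genes related to them, and duct and progenitor genes. Filled points passed an adjusted p-value of 0.05 and open points did not; Sox9, Cd24a and Prom1 lie above 2, while Prom2, Cdh1 and Krt19 lie near 0.

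The 6 fold changes differed in size. The difference between 2 genes was taken as the log2 ratio of their values within each library, and the ratio was compared between the groups for all 15 pairs. In 9 pairs the groups of ratios did not overlap. Sox9, Prom1 and Cd24a differed least from each other, with the log2 ratio of Sox9 to Prom1 changing by 0.04, that of Sox9 to Cd24a by -0.02 and that of Prom1 to Cd24a by -0.06, all with overlapping groups. Against Epcam, Sox9 gained 0.84 and Prom1 0.80 on the log2 scale, and Epcam lost 0.86 against Cd24a. Sox9 gained 1.07 against Sox4 and 1.28 against Cd44, without overlap. Sox4, Epcam and Cd44 overlapped in all 3 of their pairs, with changes of -0.23, 0.21 and 0.44. The smallest p that an exact permutation test allows here is 0.1 (two-sided), so none of the pairs could pass. The 9 pairs without overlap had that p, which was 0.167 after Benjamini-Hochberg adjustment over the 15 pairs.

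**Figure D3:**
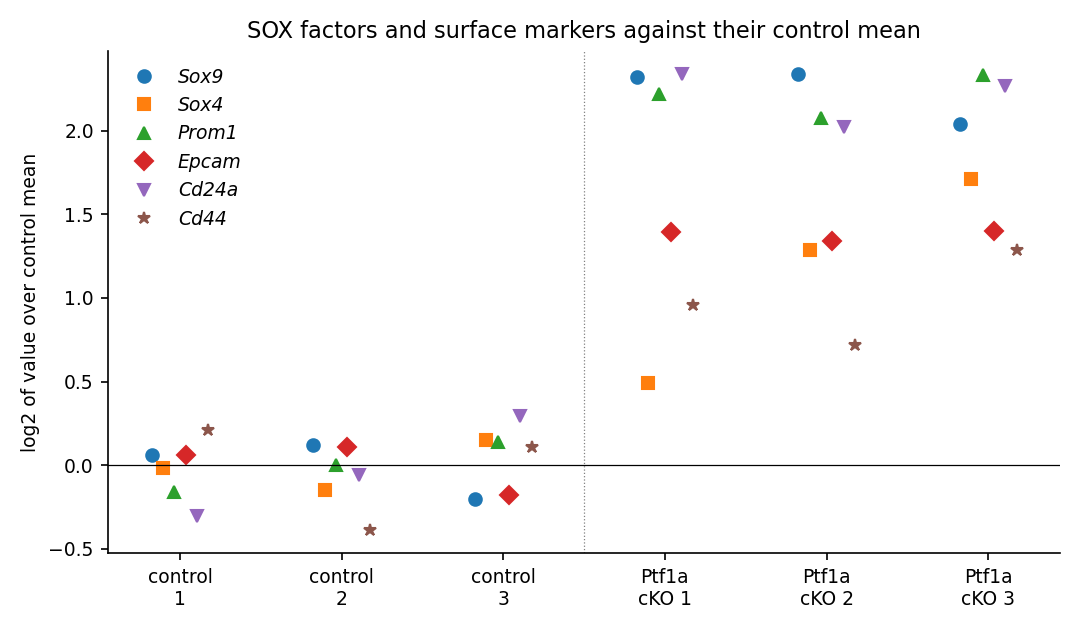
Log2 of each value over the mean of the control libraries of its gene, for the 6 genes in the 3 control and 3 Ptf1a cKO libraries, offset sideways for clarity. Sox9, Prom1 and Cd24a stay together near the top of each Ptf1a cKO library, and Sox4 is lowest in Ptf1a cKO replicate 1 and highest in replicate 3.

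Divided by the exon length of the gene in GRCm38, the order of levels in control was Cd24a (562 normalized counts per kilobase), Epcam (103), Sox9 (30.3), Sox4 (15.4), Prom1 (12.5) and Cd44 (4.10). In Ptf1a cKO it was Cd24a (2613), Epcam (267), Sox9 (143), Prom1 (57.8), Sox4 (36.6) and Cd44 (8.24). Prom1 and Sox4 thus changed places with these lengths. The length was that of all annotated exons of a gene joined, 7175 bases for Prom1 and 4795 for Sox4. A shorter length of Prom1, as of a single transcript, could change their order in control and was not tried. No neighbours in either order overlapped between libraries, but the lowest Sox4 value in control, 13.9 per kilobase, was barely above the highest Prom1 value, 13.7. In Ptf1a cKO the highest Sox4 value was 50.5 and the lowest Prom1 value 52.5.

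Over the 6 libraries the genes most like Sox9 by Pearson's r of the log2 values were Anpep (0.999), Tmprss2 (0.998), Alg12, BC021891 and Gif. For Prom1 they were Zfp523, Ghr, Elmod3, Mecom and Tmem51, and for Epcam they were Ddx58, Myrf, Ech1, Rnpc3 and Tmprss2. All points of these correlations share the 2 groups, and 9.77% of all genes had an r above 0.9 with Sox9, 11.4% with Prom1 and 11% with Epcam. Anpep, an aminopeptidase of apical membranes, rose from 1646 to 7834 normalized counts (log2 fold change 2.25, limma adjusted p = 2.6e-05), and Tmprss2, a membrane-bound serine protease, rose from 114 to 753 (log2 fold change 2.70, limma adjusted p = 8.7e-06). The sizes of change differed among the genes listed, as r does not depend on them. Zfp523 had a log2 fold change of 0.44 (limma adjusted p = 0.0105) and Alg12 of 0.44 (limma adjusted p = 0.0206). Alg12 lost its call without control replicate 2 or any 1 Ptf1a cKO library (limma adjusted p = 0.0529 to 0.0591). Gif lay at 5.81 to 6.47 with 1 library left out. Within the groups the picture was less uniform. Sox9 and Prom1 had an r of 0.98 over the 6 libraries and of -0.80 once the group means were subtracted, whereas Prom1 and Cd24a had 0.995 and 0.90.

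The lists around these genes are given beside the 17.1% of all genes that were called higher and the 16.8% called lower. Of 35 paralogs and partners of the surface markers 24 were in the table, and 9 rose (37.5%), 2 fell (8.33%) and 13 did not pass, with a median log2 fold change of 0.53. The 2 that fell became 1 without control replicate 2 or Ptf1a cKO replicate 1. The tetraspanins Cd81 and Cd9 rose (log2 fold changes 1.11 and 0.92, limma adjusted p = 1.7e-04 and 0.00205), as did the claudins Cldn4 and Cldn3 (1.54 and 0.70, limma adjusted p = 0.00237 and 0.0356), and these 4 were picked after their values were seen. Cldn3 lost its call without any 1 control library or Ptf1a cKO replicate 1 (limma adjusted p = 0.0545 to 0.110). Of 29 other markers used for stem and progenitor cells 23 were in the table, and 12 rose (52.2%), 1 fell and 10 did not pass, with a median of 0.59, and 3 fell without Ptf1a cKO replicate 2. Lrig1, a receptor inhibitor found in stem cell niches, rose from 281 to 801 normalized counts (log2 fold change 1.49, limma adjusted p = 1.9e-04). Nt5e (CD73) had a log2 fold change of 2.28 (limma adjusted p = 0.0294) with overlapping groups, and was not called without control replicate 1 or 2 or Ptf1a cKO replicate 1 or 3 (0.0841 to 0.114). Nes, which encodes the filament protein nestin, fell from 804 to 133 (log2 fold change -2.74, limma adjusted p = 5.7e-04).

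Of 26 transcription factors of pancreatic progenitors 14 were in the table, and 2 rose (14.3%, near the 17.1% of all genes) and 12 did not pass, with a median log2 fold change of -0.12. With every library scaled to the same total all 14 were called higher, beside 9590 of all 10245 genes. With the same total without acinar genes 7 were, beside 5919 of all genes. Those that rose were Glis3 (1.31, limma adjusted p = 0.0185) and Tcf7l2 (0.94, limma adjusted p = 0.00925), and Glis3 was not called without control replicate 1 or Ptf1a cKO replicate 3 (limma adjusted p = 0.0592 and 0.0583). Pdx1 and Hes1, both progenitor factors, had log2 fold changes of -0.13 and -0.64 (limma adjusted p = 0.667 and 0.125), and the groups overlapped for both. Without control replicate 2, Hes1 passed at a log2 fold change of -0.92 (limma adjusted p = 0.0429).

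Duct markers moved in both directions. Of 24 such genes 18 were in the table, and 7 rose (38.9%, beside 17.1% of all genes), 2 fell (11.1%, beside 16.8%) and 9 did not pass, with a median log2 fold change of 0.20. The 7 that rose became 4 without control replicate 2 or Ptf1a cKO replicate 1. They became 16 at the same total, where 9590 of all 10245 genes were called higher. Pigr, the receptor that carries immunoglobulins across epithelium, rose from 130.4 to 892 normalized counts (log2 fold change 2.72, limma adjusted p = 4.3e-05). The duct anion exchanger Slc26a6 fell from 253 to 57.8 (log2 fold change -2.13, limma adjusted p = 2.6e-04). Car2, a carbonic anhydrase of duct cells, had a log2 fold change of 2.09 (limma adjusted p = 0.0271) at low values, and it lost the call without control replicate 2 or 3 or Ptf1a cKO replicate 1 or 3 (limma adjusted p = 0.0729 to 0.0908). The duct keratins Krt19 and Krt7 had overlapping groups, Krt19 with means of 241 and 243 normalized counts (log2 fold change -0.01, limma adjusted p = 0.966) and Krt7 with 40.0 and 58.3 (log2 fold change 0.44, limma adjusted p = 0.270).

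Of 28 genes known as targets or cofactors of SOX9 in cartilage and other organs, 12 were in the table, and 3 rose (25%, beside 17.1% of all genes), 3 fell (25%, beside 16.8%) and 6 did not pass, with a median log2 fold change of 0.28. Sox6, a cofactor that is also counted in the SOX family above, was 1 of the 3 that fell. The 3 that fell became 1, which was Sox6, without any 1 control library or Ptf1a cKO replicate 1. The 3 that rose became 5 when the fit left out Ptf1a cKO replicate 2. At the same total 11 were higher, beside 9590 of all 10245 genes. At the same total without acinar genes 9 were, beside 5919 of all genes. None of the 12 was called lower in either. The cartilage collagens Col2a1, Col9a1 and Col11a1 and the proteoglycan Acan had no value. Col27a1, a fibrillar collagen, rose from 35.0 to 282 normalized counts (log2 fold change 2.63, limma adjusted p = 0.00251). Mia, a small secreted protein of cartilage, rose from 64.0 to 263 (log2 fold change 1.96, limma adjusted p = 4.5e-04), and Ctgf, a matricellular protein, had a log2 fold change of 0.98 (limma adjusted p = 0.0441) and was not called without control replicate 1 or 2 or Ptf1a cKO replicate 1 or 3 (0.0577 to 0.146).

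**Figure D4:**
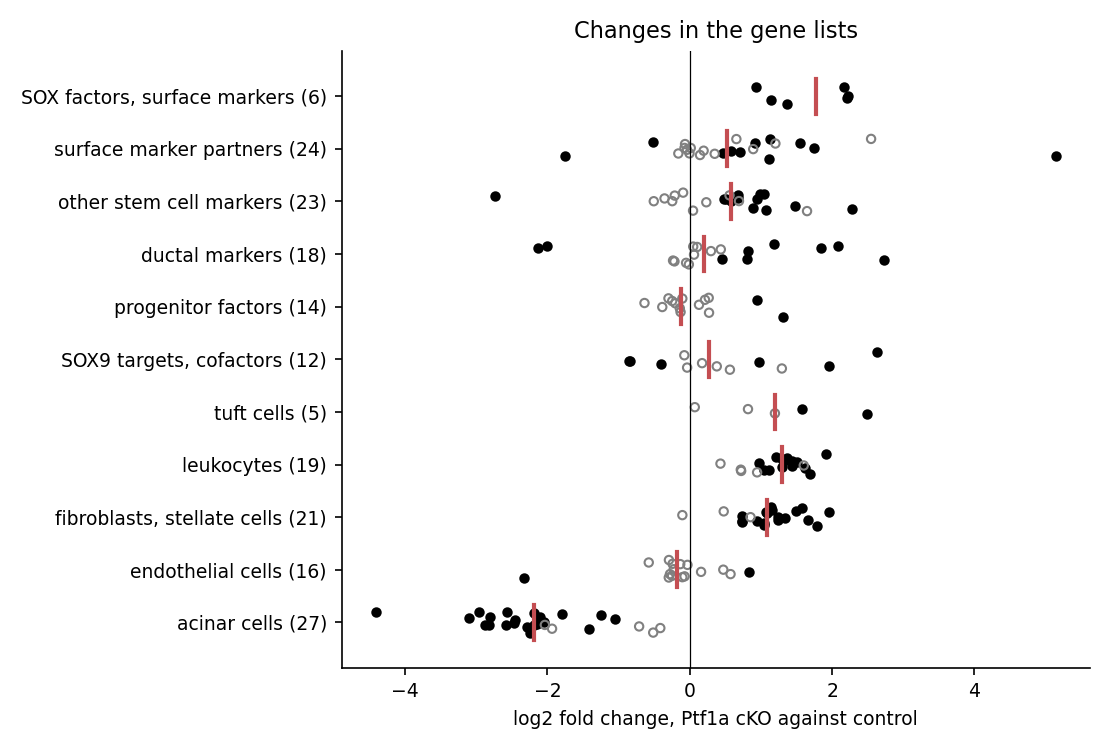
Log2 fold changes of Ptf1a cKO against control for the genes of each list, with the number of genes in the table in brackets. Filled points passed an adjusted p-value of 0.05, open points did not, vertical offsets only separate the points, and red bars are medians, which lie at 1.77 for the SOX factors and surface markers, 0.20 for duct markers, -0.12 for progenitor factors and -2.19 for acinar genes.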

How the data were processed

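Total RNA from whole pancreas was sequenced by the authors as single-end reads from Illumina TruSeq libraries. The submitters' processing notes name TopHat2 2.0.4, Bowtie 0.12.7.0, SAMtools 0.1.18.0, HTSeq 0.6.0 and build mm9, and the paper names edgeR with TMM normalization. The deposited table holds a signal, the authors' normalized read counts, never negative and with decimals. The values have no common step that would give whole reads back, so models of read counts were not run, and no interval for counting error is given. A further 3 entries that name no gene made up 75.7% to 82.6% of a library and were left out. Most of this was the entry for reads without a unique alignment. It was 74.4% to 76.2% of a control library and 77.3% to 81.1% of a Ptf1a cKO library. Its effect on the values of genes was not tested.

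Values were divided by 13.6393, the same for all libraries, and log2(value + 0.25) was tested, the pseudocount being 3.41 normalized counts. Fold changes on this scale understate those of low genes. A mean of at least 0.25 was required and removed none of the 10245 genes. The lowest mean of a gene over the 6 libraries was 16.8 normalized counts, so genes of lower mean had no value. A gene low in control could thus be in the table through its Ptf1a cKO values alone. The shares of listed genes that rose or fell hold only for the genes in the table. The fit used limma 3.58.1 (lmFit, then eBayes with a mean trend) in R 4.3.3, without covariates, two-sided, and with Benjamini-Hochberg adjustment over all genes. The labels do not say how the mice were related. The p-values weigh the difference between groups against the spread between libraries of a group, which limma moderates over all genes. Python 3.11.15 with pandas 2.3.3 was used for lists, levels and promoters. The fit was also run on simulated data with the independent normal noise that limma assumes. That run cannot tell whether these libraries keep to the assumption.

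The genes and lists were chosen with earlier results of these data known. Named in the text, as far as it describes them, are the 6 genes, every SOX gene, the 3 largest calls of each list and the most abundant gene of cell type lists, a few fixed genes (Prom2, Cldn7, Cdh1, Pdx1, Hes1, Krt19 and Krt7), the 5 genes most like Sox9, Prom1 and Epcam, and Ptf1a. Alternatives were other pseudocounts, filters, scalings and limma settings, the replicate number or sex as a term, female mice by label, a stricter threshold and each library left out. The result of 1 further gene is not reported here.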

Additional observations from a re-analysis of the deposited data

How the results depend on the processing

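With every library scaled to the same total, 9719 genes were called (98.7% of them higher, against 50.4% as deposited), with the same total without acinar genes 6509 (90.9% higher), at an adjusted p-value of 0.01 1794, and without the control libraries 1 and 3, an alternative chosen after seeing the data, 796, against 3475. Leaving out 1 library gave 2363 to 3601. Relative to the median of all genes, which was 1.49 at the same total, Sox9 stood at 2.20, Prom1 at 2.15, Cd24a at 2.24, Epcam at 1.37, Sox4 at 1.10 and Cd44 at 0.82, and as deposited at 2.17, 2.14, 2.19, 1.33, 1.10 and 0.89. Leaving out 1 library gave log2 fold changes of 2.11 to 2.30 for Sox9, 2.10 to 2.24 for Prom1, 2.09 to 2.39 for Cd24a, 1.28 to 1.42 for Epcam, 0.87 to 1.46 for Sox4 and 0.76 to 1.05 for Cd44. At 0.01, Sox4 (1.14) and Cd44 (0.93) were not called, nor were they without the control libraries 1 and 3 (1.27 and 1.25). A filter at a mean of 5 left Cd44 out.

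Signs turned at the same total for Sox6 (0.60), Sox12 (0.29), Sox18 (0.83), Hes1 (0.76), Prom2 (1.42), Pdx1 (1.28) and Krt19 (1.47). Without acinar genes in the total they turned for Prom2 (0.42), Pdx1 (0.34) and Krt19 (0.48). Krt19 was 0.033 at the same 75th percentile, Prom2 0.0017 in female mice by label, and Cdh1 -0.010 with median-of-ratios scaling. Without the control libraries 1 and 3, Cdh1 was -0.041 and Pdx1 0.095. Leaving out 1 library gave -0.074 to 0.063 for Cdh1, -0.24 to 0.047 for Pdx1, -0.18 to 0.19 for Krt19 and -0.22 to 0.27 for Ptgs1. The r of Sox9 and Prom1 was -0.80 for deviations from group means. Beyond the scalings, the cause of these changes was not tested.

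With a replicate block 3525 genes were called and no call of the 6 genes changed. Deviations from group means had correlations of 0.039, 0.134 and 0.144 between same-numbered libraries, and of -0.202 to 0.083 between the others. The labels do not say that the numbers pair the libraries, and the main fit took no pairing. Without the control libraries 1 and 3, fewer partners, other stem cell markers, progenitor factors, duct markers, SOX9 targets or cofactors, and tuft cell genes were called. In that fit Sox6, a cofactor in the list of SOX9 targets and cofactors, had a log2 fold change of -0.93. At the same total, 23 of 24 partners, 22 of 23 other stem cell markers, 17 of 19 leukocyte genes, 5 of 7 SOX genes and all 5 tuft cell genes were higher. The same was so for 9590 of all 10245 genes. There were 3 libraries a group, counting error could not be taken from the normalized values, and age followed genotype.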

Other observations

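Of 20 gene names of proliferating cells 11 were in the table, and 5 rose (45.5%, beside 17.1% of all genes) and 6 did not pass. The count of 5 became 3 without control replicate 1 or 2. Mki67, a marker of cycling cells, had 15.4, 13.2 and 54.3 normalized counts in control and 59.9, 256 and 76.6 in Ptf1a cKO (log2 fold change 2.06, limma adjusted p = 0.0241). It was not called without control replicate 1 or 2 (limma adjusted p = 0.0872 and 0.0846). Of 25 gastric and intestinal gene names 8 were in the table and 6 rose (75%, beside 17.1% of all genes). Pga5, a pepsinogen of gastric chief cells, was at 1392 to 2385 normalized counts in control and 61213 to 285261 in Ptf1a cKO. Without the control libraries 1 and 3, 6 gastric and intestinal genes were called higher, and no gene of proliferating cells was called.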
